A study of Rattus norvegicus with 9 samples.

Results

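Transcript levels of 8 genes of the oxidative stress response (Srxn1, Osgin1, Hmox1, Nqo1, Gclc, Gclm, Txnrd1 and Slc7a11) were examined in rat adrenal glomerulosa cells, which form the outermost zone of the adrenal cortex and make aldosterone. The members were all probe sets whose only gene symbol in the annotation of the array was 1 of these 8, which gave 8 of the 14217 genes named on the array and 12 of the 31042 probe sets that were not controls. Of these 12, 11 were bright enough to be tested, among 18625 tested in all. Srxn1 had 3 probe sets, Gclc and Txnrd1 had 2 each and the other genes had 1.

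The study asked which genes respond when glomerulosa cells are exposed to the secretagogues of aldosterone. Freshly isolated rat cells, dispersed enzymatically and mechanically, were kept for 2 h at 37 °C and 5% CO2 in DMEM:F12 with 0.5% bovine serum albumin, alone (control), with angiotensin II (Ang II, 100 nM) or with potassium (16 mM). The labels name no strain, age, sex or genetic change for any group, and they do not say whether 16 mM potassium was added or final. The potassium concentration of the medium in the other groups was not given in the sources used here. Each of 3 independent cell preparations supplied 1 tube per group, giving 9 arrays with 3 to a group, and differences were taken within a preparation. Each Affymetrix Rat Genome 230 2.0 array gave 1 linear signal per probe set. Changes are differences of log2(signal + 16), which understate the change of dim probe sets, with the standard error (SE) of the fit. Folds are the fitted log2 differences turned back to a linear scale, and every adjusted p-value comes from limma, with the Benjamini-Hochberg method applied over all 18625 probe sets. A probe set was called as changed at an adjusted p under 0.05.

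Most of these genes are known as targets of the transcription factor NRF2 (encoded by Nfe2l2), which is held down by its inhibitor KEAP1 and, when cells meet oxidants or electrophiles, enters the nucleus and binds antioxidant response elements together with small MAF proteins. The products repair oxidised proteins, build glutathione, reduce thioredoxin and quinones and break down haem. Steroid-making cells are exposed to reactive oxygen from their mitochondrial cytochrome P450 enzymes. AP-1, a dimer of FOS and JUN proteins, binds a short element that resembles the core of the antioxidant response element, and CREB, which cyclic AMP and calcium signals activate, binds the cyclic AMP response element.

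The promoters of Srxn1, Osgin1 and Gclm are printed because the first gene rose after Ang II, the next fell after both stimuli, and Gclm is a classical NRF2 target that did not pass the test after either. They are shown 5′ to 3′ on the strand of the gene, from 250 bases before the RefSeq start (build GRCr8). Capitals mark matches to the motifs that were searched.
Srxn1, chr3:161064562-161064813, plus strand, ending 2 bases into the transcript to hold the whole motif: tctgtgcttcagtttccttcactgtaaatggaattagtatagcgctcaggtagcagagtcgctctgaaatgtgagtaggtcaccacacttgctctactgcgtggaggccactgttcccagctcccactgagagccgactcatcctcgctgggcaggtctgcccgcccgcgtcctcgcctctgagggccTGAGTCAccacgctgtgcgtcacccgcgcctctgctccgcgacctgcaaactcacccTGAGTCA
Osgin1, chr19:64393651-64393900, plus strand, before a start that lies inside the annotated gene: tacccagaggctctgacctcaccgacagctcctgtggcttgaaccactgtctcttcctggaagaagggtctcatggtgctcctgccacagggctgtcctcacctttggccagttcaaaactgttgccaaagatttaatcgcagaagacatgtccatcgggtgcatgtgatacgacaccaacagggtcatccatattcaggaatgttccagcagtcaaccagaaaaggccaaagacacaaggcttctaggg
Gclm, chr2:213031885-213032134, plus strand: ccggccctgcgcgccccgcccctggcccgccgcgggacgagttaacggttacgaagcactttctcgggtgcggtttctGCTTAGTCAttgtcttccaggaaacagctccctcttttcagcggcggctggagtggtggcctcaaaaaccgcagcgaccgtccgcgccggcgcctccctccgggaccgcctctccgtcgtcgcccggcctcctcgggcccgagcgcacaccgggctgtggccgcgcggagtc

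The letters searched on both strands, in windows from 250 bases before to 50 bases after a start, were TGACNNNGC (antioxidant response element core), TGANTCA (AP-1 site), TGACGTCA (cyclic AMP response element) and AAAGGTCA (the site bound by NR4A monomers). An AP-1 site can overlap an antioxidant response element core, but no matches overlapped in the windows of the members. RefSeq windows were listed for 7 of the 8 members, 8 windows in all, and Hmox1 was not among them. Srxn1 held 2 AP-1 sites, at bases -62 to -56 and -5 to 2 counted from the start, both as TGAGTCA. An AP-1 site was found in 7.33% of 33469 windows of the rat genome. Gclm held 1 core element at -172 to -164, as GCTTAGTCA on the printed strand, and 1 of the 2 windows of Txnrd1 held 1 at -78 to -70, as GCTTTGTCA. The core element was found in 12.1% of all windows. The cyclic AMP response element (1.83% of all windows) and the NR4A site (1.43%) were in none of the 8 windows, nor was any of the 4 motifs in the windows of Osgin1, Nqo1, Gclc and Slc7a11. A match describes only letters in these windows. The starts of the Osgin1 window and of both Txnrd1 windows lie inside the annotated genes, so other starts of these genes are not covered.

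**Figure D1:**
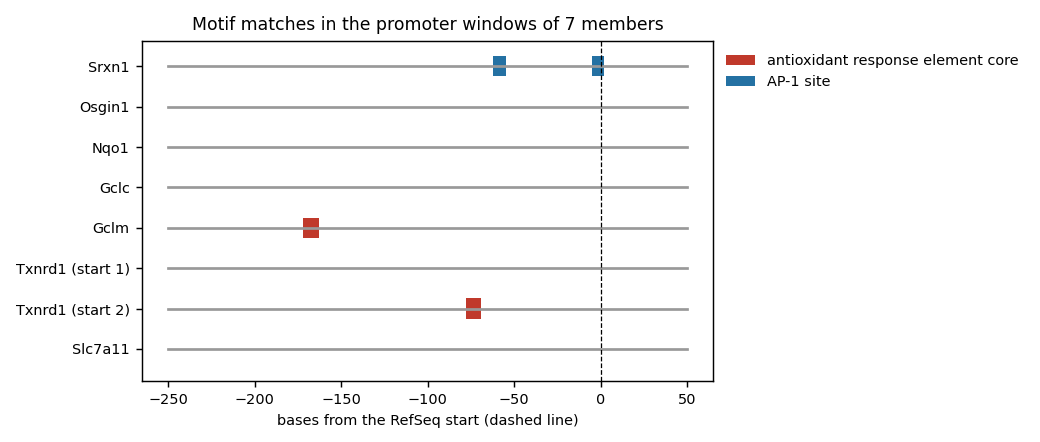
Promoter windows of 7 members, from 250 bases before to 50 bases after each RefSeq start (horizontal axis, bases from the start), with matches to the antioxidant response element core in red and to the AP-1 site in blue. The 2 matches in Srxn1 are AP-1 sites, and the matches in Gclm and at start 2 of Txnrd1 are core elements.

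The 8 genes did not move together. After Ang II, Srxn1 rose and Osgin1 fell, and the other 6 genes did not pass the test. After potassium, Osgin1 fell further, Hmox1 fell slightly, 1 of the 2 probe sets of Gclc rose, and Srxn1 did not pass the test. When Ang II was set directly against potassium, Srxn1, Osgin1, Hmox1, Slc7a11 and 1 probe set of Txnrd1 were higher with Ang II.

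In numbers, after Ang II 3 of the 11 tested member probe sets were called, where 2.17% of all tested probe sets were. Of these, 2 were higher and 1 lower, against 1.64% and 0.526% of all. After potassium 3 were called against 5.39% of all, 1 higher and 2 lower, against 2.8% and 2.59% of all. With Ang II set against potassium, 6 were called against 4.79% of all, all of them higher and none lower, against 3.1% and 1.7% of all. At an unadjusted p of 0.05 limma put 6 higher and 1 lower there. The median log2 difference of the 11 was 0.24, 0.08 and 0.35 in the 3 comparisons, and that of all tested probe sets was -0.03, -0.02 and -0.01. The genes were proposed with results of these arrays known, so these shares describe the members and are not independent evidence. The comparisons of each stimulus with control use the same 3 control arrays.

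**Figure D2:**
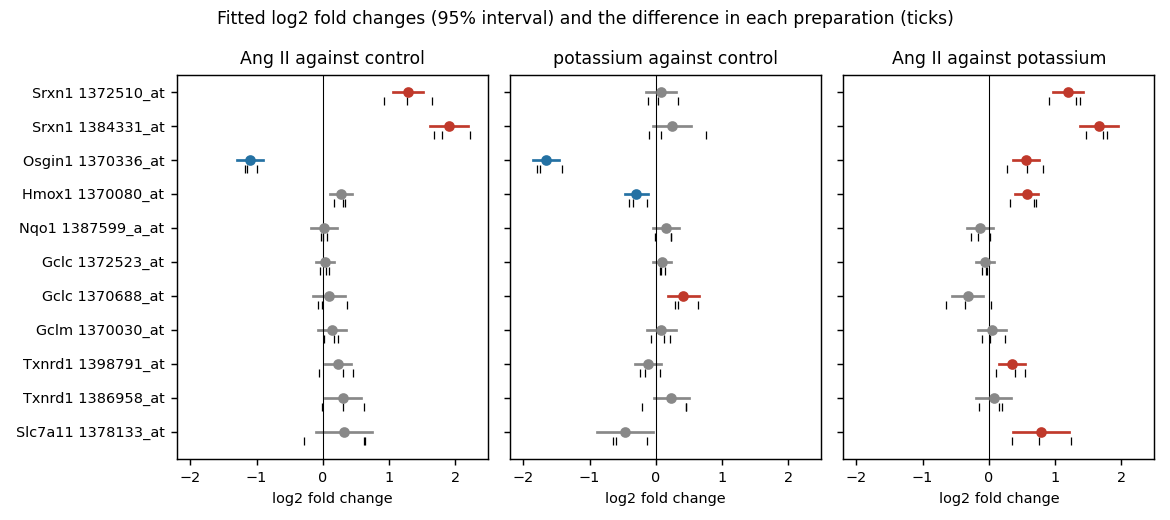
Fitted log2 fold changes of the 11 tested probe sets (points) with 95% intervals (lines) in the 3 comparisons, and the difference within each of the 3 preparations (black ticks). Red marks probe sets called higher and blue those called lower, and grey those that did not pass. Srxn1 lies far to the right after Ang II and near 0 after potassium, and Osgin1 lies to the left after both.

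Srxn1 encodes sulfiredoxin, which repairs peroxiredoxins that peroxide has over-oxidised. At its brightest probe set (1372510_at) the control signals were 3631, 3695 and 4268 in preparations 1, 2 and 3, those with Ang II were 11463, 8908 and 8158, and those with potassium were 4581, 3412 and 4352. All 3 Ang II arrays lay above all others, and the control and potassium arrays overlapped. The rise after Ang II was 2.44-fold (95% interval 2.08 to 2.85), or 1.28 ± 0.11 on the log2 scale (SE), with an adjusted p of 7.0e-06. Within the preparations the rise was 1.65, 1.27 and 0.93 on the log2 scale, largest in preparation 1.

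The second probe set (1384331_at) gave 706, 402 and 488 in the controls, 2293, 1936 and 1739 with Ang II and 654, 691 and 516 with potassium. Again only the Ang II arrays stood apart. The rise was 3.73-fold (95% interval 3.06 to 4.56, adjusted p = 2.1e-06) and was the 8th largest increase among the 18625 tested probe sets. Both probe sets thus moved the same way, and the difference in size between them was not tested. The third probe set (1381067_at) gave signals of only 5.78 to 57.3 on the 9 arrays, below the limit of 87.1 in mean signal, and was not tested.

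After potassium the Srxn1 arrays overlapped with the controls. The fold against control was 1.06 (95% interval 0.905 to 1.24, adjusted p = 0.74) at the brighter probe set and 1.18 (0.969 to 1.44, adjusted p = 0.36) at the other. The direct comparison showed that the stimuli differed. Srxn1 was 2.30-fold higher with Ang II than with potassium at the brighter probe set (1.96 to 2.69, adjusted p = 6.7e-06) and 3.15-fold higher at the other (2.58 to 3.85, adjusted p = 3.6e-06). The calls of Srxn1 held in all 23 alternative settings, except that of the brighter probe set after Ang II without the trend of variance with intensity (adjusted p = 0.050).

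**Figure D3:**
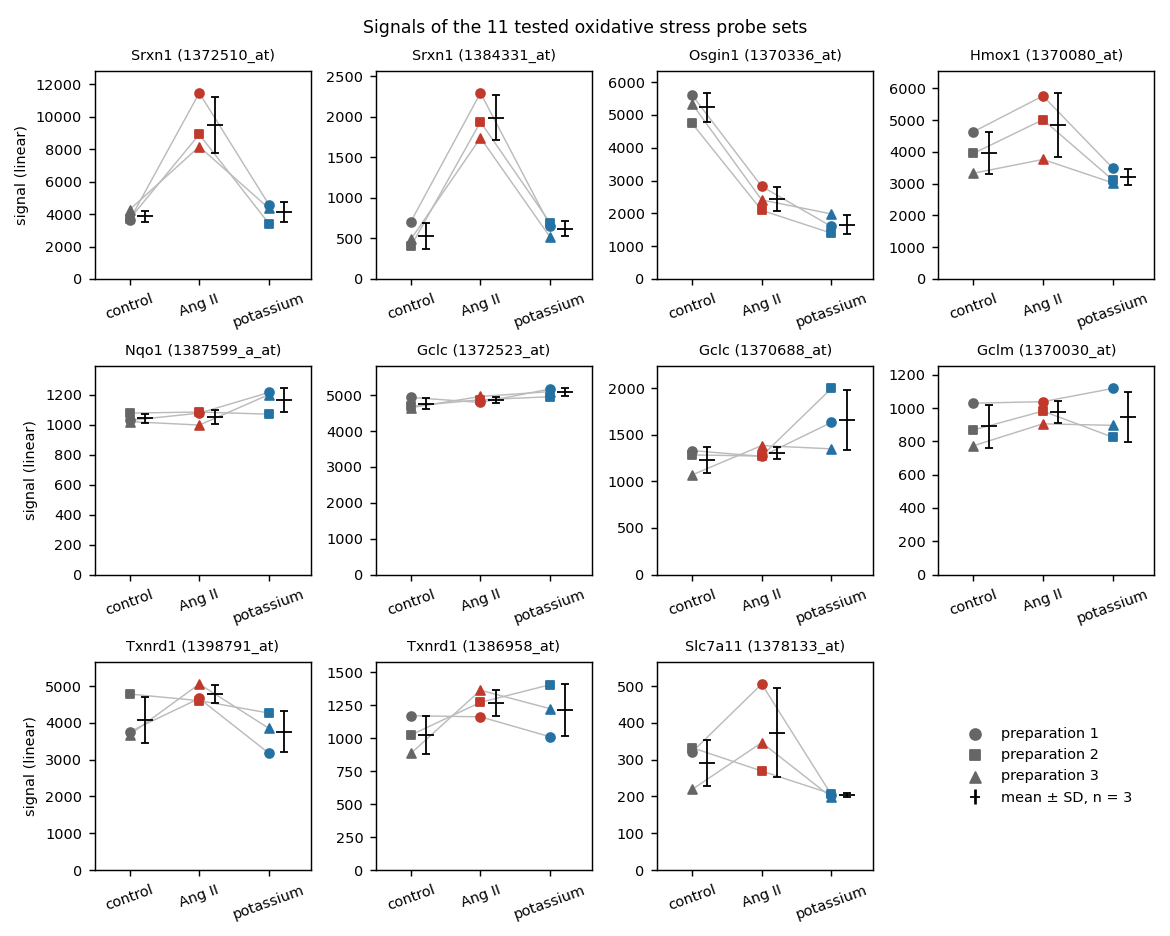
Linear signals of the 11 tested probe sets in the control (grey), Ang II (red) and potassium (blue) tubes. Symbols mark the 3 preparations, grey lines join the tubes of a preparation, and the black bars are the mean ± SD (n = 3). The Ang II tubes stand above the others for both Srxn1 probe sets, and the control tubes stand above both stimuli for Osgin1.

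Osgin1 encodes oxidative stress induced growth inhibitor 1, a regulator of cell growth and death that oxidants and NRF2 are known to raise. Its signals were 5606, 4745 and 5341 in the controls, 2823, 2093 and 2410 with Ang II, and 1602, 1396 and 1984 with potassium. The 3 groups did not overlap, and in each preparation the order was control, then Ang II, then potassium. Osgin1 fell 2.15-fold after Ang II (95% interval 1.87 to 2.46, adjusted p = 7.0e-06) and 3.15-fold after potassium (2.75 to 3.61, adjusted p = 2.8e-08). Only 7 probe sets had a larger decrease after potassium, and 28 after Ang II. Both calls held in all 23 alternative settings.

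The further decrease with potassium passed the test as well. Osgin1 was 1.47-fold higher with Ang II than with potassium (95% interval 1.28 to 1.68, adjusted p = 0.0019), and the difference was 0.81, 0.58 and 0.28 on the log2 scale in preparations 1, 2 and 3. The call was lost when preparation 1 was left out (adjusted p = 0.097) and under a model with no intensity trend (0.12). In bulk samples such as these, less RNA per cell and fewer cells of an expressing type cannot be told apart.

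**Figure D4:**
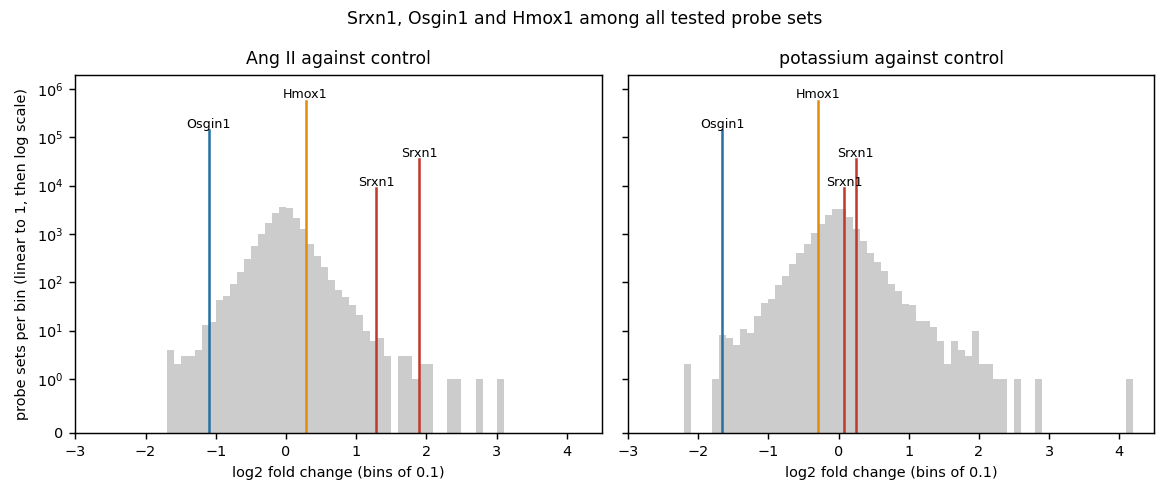
Distribution of the log2 fold changes of all 18625 tested probe sets after Ang II (left) and after potassium (right), in bins of 0.1 on the horizontal axis with the number of probe sets on a log scale above 1. Coloured lines mark Srxn1 (2 probe sets), Osgin1 and Hmox1. Srxn1 lies in the right tail after Ang II but in the main body after potassium, and Osgin1 lies in the left tail of both. Hmox1 lies in the main body of both, right of the centre after Ang II and left of it after potassium.

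Hmox1 encodes haem oxygenase 1, which breaks haem down to biliverdin, iron and carbon monoxide. Its signals were 4628, 3947 and 3325 in the controls, 5756, 5011 and 3759 with Ang II, and 3493, 3118 and 3025 with potassium. In every preparation the Ang II tube was the highest and the potassium tube the lowest, while the preparations themselves differed enough for each stimulus to overlap with the controls. Hmox1 was 1.21-fold higher after Ang II (95% interval 1.08 to 1.37), which did not pass the test (adjusted p = 0.10). It fell 1.23-fold after potassium (1.09 to 1.38, adjusted p = 0.046).

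That decrease was close to the threshold and held in only 8 of the 23 alternative settings. It was lost under the model without the preparation as a block (adjusted p = 0.39). It also ended when any of control arrays 1, 2 and 3, Ang II arrays 1 and 2 or potassium arrays 1 and 2 was left out. With each array scaled to the median of all probe sets it was -0.17 on the log2 scale (adjusted p = 0.45). That scaling moved the median of all tested probe sets from -0.02 to 0.10 after potassium and from -0.03 to 0.09 after Ang II. Relative to that median, Hmox1 was at -0.27 after potassium under either scaling.

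The stimuli differed from each other in Hmox1. It was 1.49-fold higher with Ang II than with potassium (95% interval 1.32 to 1.67, adjusted p = 5.0e-04), by 0.72, 0.68 and 0.31 on the log2 scale in preparations 1, 2 and 3, and these groups did not overlap. The call ended without the block (adjusted p = 0.052) and without the intensity trend (0.088). Macrophages are rich in Hmox1. The summed signal of 11 of 12 macrophage markers was 10657 to 14254 in the controls, 10924 to 14169 with Ang II and 9134 to 13879 with potassium. None of the 10 tested macrophage markers was called in any comparison. Their median log2 difference was 0.05 after Ang II, -0.10 after potassium and 0.10 for Ang II against potassium, with markers of either sign in each comparison. After potassium Aif1 was at -0.43 ± 0.20, Csf1r at -0.31 ± 0.19 and Cd14 at -0.19 ± 0.09, and Mrc1 was at 0.53 ± 0.16. For Ang II against potassium Aif1 was at 0.50 ± 0.20 and Lyz2, the brightest marker, at 0.07 ± 0.07. C1qb at -0.0069 ± 0.15 and Mrc1 at -0.17 ± 0.16 were the only tested macrophage markers lower with Ang II there. All the others were higher, the direction of Hmox1, among them Csf1r at 0.34 ± 0.19 and C1qc at 0.19 ± 0.13. None of the 11 measured markers was at 0, and Cd163, the haemoglobin scavenger receptor, had a mean of 26.4, below the limit for testing. These markers were named after their values were seen. The part of macrophage content in the Hmox1 differences was not tested.

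Gclc encodes the catalytic subunit of glutamate-cysteine ligase, the rate-limiting enzyme of glutathione synthesis. Its brighter probe set (1372523_at) lay between 4653 and 5174 on all 9 arrays, and the fold was 1.02 after Ang II (95% interval 0.933 to 1.13) and 1.07 after potassium (0.970 to 1.17), neither of which passed. The other probe set (1370688_at) gave 1332, 1286 and 1071 in the controls, 1270, 1274 and 1386 with Ang II and 1635, 2000 and 1351 with potassium.

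At this dimmer Gclc probe set the potassium arrays were above the controls without overlap, and the rise was 1.34-fold (95% interval 1.13 to 1.58, adjusted p = 0.043). The brighter probe set was also higher with potassium in all 3 preparations, without overlap with the controls, but it did not share the call. The call of the dimmer probe set held in 11 of the 23 alternative settings. It was lost under the model without the block (adjusted p = 0.14). It ended when any of control arrays 1, 2 and 3, Ang II array 1 or potassium arrays 1 and 2 was left out. Against potassium, Ang II gave a log2 difference of -0.32 ± 0.11, which did not pass (adjusted p = 0.14) but was called without preparation 3 (adjusted p = 0.027) and without Ang II array 3 (0.029).

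Gclm encodes the modifier subunit that makes the ligase more efficient. Its signals were 1029, 868 and 773 in the controls, 1038, 982 and 905 with Ang II and 1118, 825 and 896 with potassium, so that all groups overlapped. The fold was 1.10 after Ang II (95% interval 0.948 to 1.28, adjusted p = 0.59) and 1.06 after potassium (0.914 to 1.23, adjusted p = 0.71). Its printed promoter holds the core element, and the interval leaves room for a rise of less than 1.28-fold after Ang II.

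Slc7a11 encodes xCT, the cystine and glutamate exchanger that brings in cystine for glutathione. It was dim, with signals of 321, 333 and 219 in the controls, 506, 269 and 346 with Ang II and 205, 207 and 198 with potassium. The potassium arrays lay close together below all others, and the Ang II arrays overlapped with the controls. Neither the fold of 1.25 after Ang II (95% interval 0.934 to 1.67, adjusted p = 0.50) nor the log2 difference of -0.46 ± 0.20 after potassium (adjusted p = 0.22) passed the test. Slc7a11 was 1.72-fold higher with Ang II than with potassium (1.29 to 2.31, adjusted p = 0.032), in all 3 preparations. This difference passed in 13 of the 23 alternative settings. It was lost under the model without the block (adjusted p = 0.085) and when any of Ang II arrays 1 and 3 or potassium arrays 1, 2 and 3 was left out.

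Txnrd1 encodes the cytosolic thioredoxin reductase, which passes electrons from NADPH to thioredoxin. Its brighter probe set (1398791_at) gave 3760, 4785 and 3677 in the controls, 4665, 4606 and 5058 with Ang II and 3176, 4268 and 3853 with potassium. Control array 2 lay within the range of the Ang II arrays, and the fold of 1.18 after Ang II (95% interval 1.03 to 1.35) did not pass (adjusted p = 0.24). After potassium the log2 difference was -0.11 ± 0.09 (adjusted p = 0.56). The Ang II arrays lay above the potassium arrays, 1.28-fold (1.11 to 1.46, adjusted p = 0.040), which passed in 10 of the 23 alternative settings. It was lost under the model without the block (adjusted p = 0.19) and when any of control array 1, Ang II arrays 1 and 3 or potassium arrays 1, 2 and 3 was left out.

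The dimmer Txnrd1 probe set (1386958_at) ranged from 884 to 1170 in the controls, from 1162 to 1363 with Ang II and from 1010 to 1405 with potassium. All groups overlapped, and none of the 3 comparisons passed by limma, with adjusted p-values of 0.27, 0.34 and 0.86. It therefore did not share the call of the brighter probe set.

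Nqo1 encodes the NADPH quinone dehydrogenase that is widely used as a readout of NRF2. Its signals were 1028, 1077 and 1020 in the controls, 1077, 1084 and 997 with Ang II and 1214, 1070 and 1200 with potassium. The fold was 1.01 after Ang II (95% interval 0.880 to 1.16, adjusted p = 0.97) and 1.11 after potassium (0.969 to 1.28, adjusted p = 0.41).

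Beyond the members, 8 lists of other genes of redox biology held 125 genes, of which 97 had a tested probe set (the brightest probe set stood for each gene). After Ang II 3 of the 97 rose and none fell by limma, against 1.64% and 0.526% of all tested probe sets, and at an unadjusted p of 0.05 limma put 9 higher and 5 lower. After potassium 3 rose and 1 fell, against 2.8% and 2.59% of all, and 9 were higher and 10 lower at the unadjusted p, so that the 3 that rose are about the background share. The median log2 difference of the 97 was -0.01 and 0.01, beside -0.03 and -0.02 over all tested probe sets. For the unadjusted counts the share of all tested probe sets was not counted, so they cannot show an excess.

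Among 8 tested regulators of NRF2, Maff alone was called after Ang II. Maff, a small MAF protein that pairs with NRF2 on antioxidant response elements, rose by 0.32 ± 0.08 on the log2 scale, adjusted p = 0.040. Its mean signal was 1956 ± 265 in the controls and 2449 ± 322 with Ang II (SD, n = 3). The rise passed in 8 of the 23 alternative settings, not under the model without the block (adjusted p = 0.34), and held among single arrays only when potassium array 2 was left out. Maff was 0.41 ± 0.08 higher with Ang II than with potassium (adjusted p = 0.0045). Nfe2l2 itself had log2 differences of 0.03 ± 0.07 after Ang II and -0.04 ± 0.07 after potassium, and Keap1 -0.14 ± 0.12 and 0.07 ± 0.12, none of which passed.

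The enzymes that remove peroxide and superoxide and the thioredoxin and glutaredoxin system (20 and 11 tested genes) showed 1 call against control. Sesn2, a stress-induced sestrin linked to the regeneration of peroxiredoxins and to nutrient signalling, fell by 0.31 ± 0.08 on the log2 scale after potassium (adjusted p = 0.040) and was 0.47 ± 0.08 higher with Ang II than with potassium (adjusted p = 0.0027). The decrease after potassium passed in 8 of the 23 alternative settings and was lost without any of control arrays 1 and 3, Ang II arrays 1, 2 and 3 or potassium arrays 1 and 3. Of the peroxiredoxins that sulfiredoxin repairs, Prdx2 had a log2 difference of -0.05 ± 0.05 after Ang II, Prdx3 of -0.02 ± 0.06 and Prdx4 of -0.0019 ± 0.09, none of which passed. After potassium they were at 0.03 ± 0.05, 0.02 ± 0.06 and 0.16 ± 0.09, and none passed. Prdx1, another substrate, shares its probe set with another gene symbol and was not analysed here. None of 19 genes of glutathione synthesis, recycling and conjugation was called against control in either comparison by limma, and at an unadjusted p of 0.05 0 were higher and 0 lower after Ang II and 0 higher and 2 lower after potassium. Among these, Gss, which encodes glutathione synthetase and was named after its values were seen, was at -0.40 ± 0.11 after potassium (adjusted p = 0.053).

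Haem and NADPH genes held the largest called changes of these lists against control. Alas1, the rate-limiting enzyme of haem synthesis, rose by 1.04 ± 0.08 on the log2 scale after potassium (adjusted p = 8.0e-07). Its mean signal was 5206 ± 857 in the controls and 10639 ± 390 with potassium (SD, n = 3). After Ang II it rose by 0.43 ± 0.08 (adjusted p = 0.0062), a call that ended without Ang II array 1 among single arrays, and the stimuli differed (-0.61 ± 0.08, adjusted p = 2.0e-04). Alas1 thus ordered the groups control, Ang II, potassium upward, where Osgin1 ordered them downward. Mthfd2, a mitochondrial folate enzyme, rose by 0.34 ± 0.07 after Ang II and by 0.55 ± 0.07 after potassium. The former call ended without any of control arrays 2 and 3 and Ang II arrays 1, 2 and 3. The metallothionein gene Mt2A rose by 0.26 ± 0.06 after potassium (adjusted p = 0.018), which passed in 12 of the 23 alternative settings and was lost under the model without the block (adjusted p = 0.40), and without any of control arrays 1 and 3 and potassium arrays 1, 2 and 3.

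With Ang II set against potassium, 3 of the 97 listed genes were higher and 2 lower, about the background of 3.1% and 1.7% of all tested probe sets. At an unadjusted p of 0.05 limma put 8 higher and 11 lower. Besides Maff, Sesn2 and Alas1 these were Por, the electron donor of microsomal cytochromes P450 (0.37 ± 0.08), and Pgls of the pentose phosphate pathway (-0.34 ± 0.08). The call of Por ended without any of Ang II arrays 1 and 2 and potassium array 1, and that of Pgls without any of Ang II arrays 1 and 2 and potassium arrays 1 and 2.

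**Figure D5:**
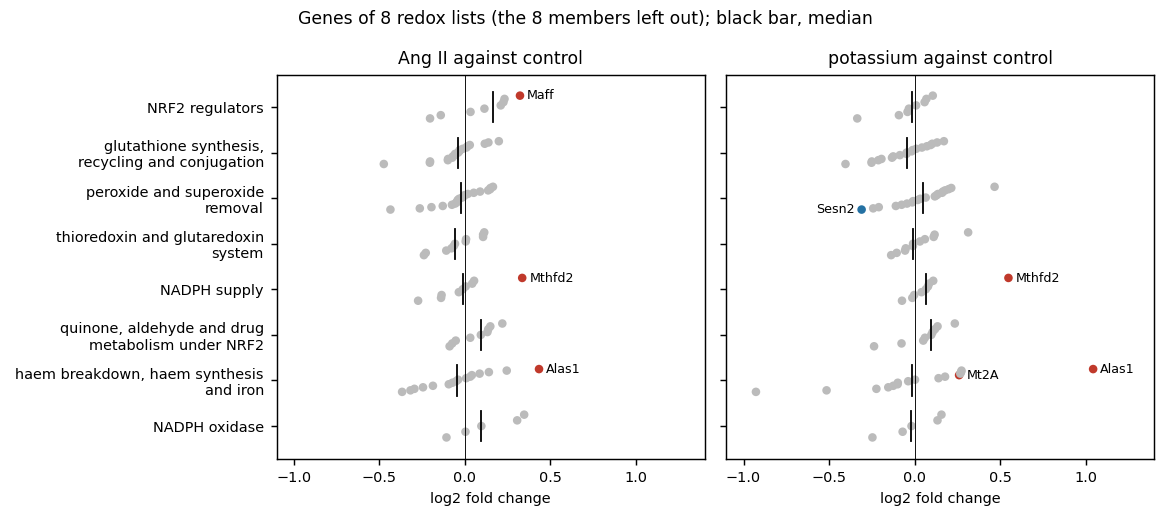
Log2 fold changes (horizontal axis) of the tested genes of 8 redox lists after Ang II (left) and after potassium (right), 1 point per gene, with the median of each list as a black bar. Named red points passed the test as higher and named blue points as lower. Most points lie near 0, and Alas1 after potassium lies farthest to the right.

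The genes whose pattern over the 9 arrays was most like that of each changed member were found by Pearson's r of log2(signal + 16), given as a description over arrays that share preparations. Dclk1, a kinase gene, was most like Srxn1 (r = 0.956), with mean signals of 400, 1307 and 476 in control, Ang II and potassium tubes. It was followed by Bud31, a splicing factor gene (0.950), and the zinc-finger gene Zfp219 (0.941). A high r does not mean a change of like size: Bud31 had a log2 difference of 0.19 after Ang II, where Srxn1 had 1.28. Rictor, a subunit of the mTOR complex 2, was most like Osgin1 (0.984), with a mean signal of 1656, 1475 and 1356, followed by the ubiquitin-conjugating enzyme gene Cdc34 (0.973) and the interferon regulatory factor gene Irf1 (0.970). The pattern of Hmox1 was most like those of the chromatin remodeller gene Smarca5 (0.966), Fam98b-ps1 (0.938) and the ubiquitin ligase gene Trip12 (0.931). Leaving out any 1 array left the r of these 9 genes at 0.899 or more, but they were chosen for a high r on these same arrays.

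Facts of the whole series bear on these values as follows. The trimmed mean signal was equal on all arrays, but the median of all probe sets was 172.9 on control array 2 and 128.0 to 143.6 on the other 8. Of the markers of zona glomerulosa, 10 of 11 were measured, and their summed signal was 89769 to 101522 on the 9 arrays. The brightest were Hsd3b1, Cyp11a1 and Star, with control means of 25200, 24712 and 18873. Star and Wnt4 passed the test in some comparisons. Because Star itself rose after Ang II (0.29 ± 0.06) and potassium (0.34 ± 0.06), the sum does not measure the share of glomerulosa cells. Cyp11b2, which defines the zone, and Mc2r were not analysed here. The summed signals of markers of other cells, members below the limit for testing included, were 29570 to 38681 for 9 endothelial genes. They were 29774 to 34651 for 2 genes of the zona fasciculata and 16294 to 21226 for 4 red blood cell genes. For 7 capsule fibroblast genes they were 15248 to 20310, and for 8 genes of the medulla 2385 to 3592. Among all markers other than those of glomerulosa cells, only Acta2 of smooth muscle was called, as higher after Ang II (0.40 ± 0.10, adjusted p = 0.049). The part of these cells in the differences of the members was not tested.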

How the data were processed

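Total RNA of the 9 tubes was biotin-labelled and hybridised to 1 array each, per the labels' protocols. The deposited values are linear intensity values per probe set, made by the authors with GCOS per the submitters' processing notes, with no version stated. How background was corrected and probes were summarised is not given in the sources used here. Detection calls were not analysed. The mean of the deposited intensity values without the lowest and highest 2% was 500.17 to 500.19 in every column, as after scaling to 1 target.

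The table held 31099 probe sets, of which 57 control probe sets were left out. The platform annotation gave 1 gene symbol for 20826 probe sets, several for 436 and none for 9780. No symbol was changed by a match to RefSeq genes (GRCr8) through the Entrez identifier. Probe sets with a mean signal over the 9 arrays above the 40th percentile (87.1) were tested, 18625 in all. The values log2(signal + 16) were fitted in R 4.3.3 by limma 3.58.1, using eBayes with a trend on intensity after lmFit and contrasts.fit. The model held the 3 groups and a fixed block for preparation, and tests were two-sided. This left 4 residual degrees of freedom and 10.7 of the prior. The model was also run on simulated data for Ang II against control. Those data held no preparation effect, so they could not test the block. The pairing comes from the series' design text, in which each preparation gave 1 tube per group. Deviations from the group means correlated at 0.11 to 0.27 for the 9 pairs of arrays of 1 preparation and at -0.21 to 0.04 for the 18 pairs of different preparations. The number of arrays limits the precision.

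The members, the gene lists and the motifs were chosen with earlier results of these data known. The text names every member, up to 4 called genes per list and comparison with the smallest p, and, for the brightest probe set of each member called against control, the 3 genes with the highest Pearson's r. Nfe2l2, Keap1, Mafk, Sqstm1 and the peroxiredoxin genes were named in addition, after their values were seen. The alternatives changed the block, the pseudocount, the filter, the normalization, the variance model, the groups fitted and the arrays included.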

Additional observations from a re-analysis of the deposited data

How the results depend on the processing

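Each of the 33 member values (11 probe sets in 3 comparisons) was recomputed under 23 alternative settings. Of these 759 values 702 kept their side of the threshold, 55 lost a call, 2 gained one, and no called value changed sign. Of the calls against control, those of the dimmer Srxn1 probe set and of Osgin1 held in all 23.

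Without the replicate block, that is without the preparation in the model, the probe sets called in all were 193 after Ang II, 499 after potassium and 442 for Ang II against potassium, in place of 404, 1004 and 893. Without the intensity trend they were 32, 256 and 155, and scaling on the all-probe-set median gave 555 for Ang II against potassium. Member probe sets called after potassium went from 3 to 1 without the replicate block, without the filter and without the trend, and for Ang II against potassium from 6 to 3 without the replicate block and 2 without the trend. Listed redox genes that rose after Ang II went from 3 to 0 without the replicate block or the trend, and 1 fell with quantile normalization. Those that rose after potassium went from 3 to 5 when the tested probe sets of each gene were averaged. The 1 that fell became 0 without the replicate block, the filter or the trend, with median centring, with scaling on the all-probe-set median and with only the 2 groups compared, 2 with the filter at the 60th percentile and 4 with quantile normalization. For Ang II against potassium the 3 higher became 1 without the replicate block and 0 without the trend, and the 2 lower became 1 without the replicate block, 1 with scaling on the all-probe-set median and 0 without the trend. The causes were not tested.

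Leaving out a preparation or 1 array gave 145 to 443, 446 to 972 and 270 to 1006 called probe sets in the 3 comparisons, 3, 1 to 3 and 3 to 6 called member probe sets, 0 to 3, 2 to 3 and 0 to 4 listed genes higher, and 0, 0 to 2 and 1 to 3 lower. Background levels were not analysed here, so the limit that signal over background sets could not be measured. Slc7a11 had the widest intervals of the 11 probe sets.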
